A study of Xenopus laevis with 12 samples.

Results

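Exon peaks are the Sox3-bound intervals whose annotation begins with "exon", that is, whose centre lay inside an annotated exon and outside the windows that the annotation program reserves for promoters and transcription termination sites. The rule found 283 exon peaks among the 5300 Sox3 peaks of neural plate border-induced explants at stage 11.5, and 5867 among the 124076 peaks of blastula stem cells at stage 9. Together these are 6150 of 129376 peaks. Exon peaks made up 5.34% of the stage 11.5 list (Wilson 95% interval 4.77 to 5.98%) and 4.73% of the stage 9 list (4.61 to 4.85%). They covered 46644 bp and 1702238 bp.

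Sox3 belongs to the SoxB1 family of HMG-box transcription factors, which bind short sequences in the minor groove of DNA, can engage nucleosomal DNA, and act with partner factors such as those of the POU family. SoxB1 factors are known for keeping blastula cells pluripotent and for the later choice of a neural fate. The neural plate border is the strip of ectoderm between neural plate and epidermis from which the neural crest arises. Most studied sites of these factors lie in promoters, introns and intergenic enhancers, but exons can also hold bound sequence: the first exon lies next to the promoter, middle exons are mostly coding, and the last exon usually carries the end of the coding sequence and the 3′ untranslated region.

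ChIP-seq was performed on wild-type *Xenopus laevis* animal pole explants, a tissue of blastula stem cells that can be directed to many fates. At stage 9, 3 libraries came from explants expressing Sox3 mRNA, whose protein product carries a Myc tag, and 3 control libraries came from wild-type explants for which the labels list no treatment. At stage 11.5, 3 libraries came from explants given Sox3, Wnt8a and Chordin mRNA, of which the latter pair induces a neural plate border state, and 3 control libraries from explants given Wnt8a and Chordin mRNA. The tagged protein came from injected mRNA and not from the embryo's own *sox3* gene, and the antibody was directed against the tag. Bead-bound chromatin was fragmented by the Tn5 transposase, which adds the sequencing adapters as it cuts.

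Each stage is represented by a single peak list, called by the authors from the Sox3 libraries against the controls. Consequently no spread between replicates can be given, and every test below compares peaks of 2 lists. Peaks are not replicates of a stage, so intervals and p-values cover counting error only and are too narrow for a statement about embryos. Depth per library is unknown. Blastula libraries were sequenced on a NextSeq and border libraries on a NovaSeq, and only the border explants were given Wnt8a and Chordin mRNA. Stage, this mRNA treatment, sequencing instrument and size of the list therefore cannot be told apart. Coordinates are those of genome build 9.2. Transcripts carry internal numbers in that annotation, and 0 of the 7006 identifiers in the exon rows matched the gene table, so regions are given by position and exon number, and the labelled cell types were not checked against marker genes. The annotation does not separate coding sequence from untranslated regions.

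The first question was where in a transcript the exon peaks lay. Positions were distinguished from the exon number in the annotation: the only exon of a single-exon transcript, and the first, a middle or the last exon of a longer one. At stage 11.5, 106 exon peaks (37.5%, 32.0 to 43.2%) lay in first exons, 80 (28.3%) in last exons, 63 (22.3%) in middle exons and 34 (12.0%) in single exons. At stage 9, the same classes held 1788 (30.5%, 29.3 to 31.7%), 1700 (29.0%), 1708 (29.1%) and 671 (11.4%) peaks. The stage 11.5 list thus had relatively more first-exon peaks and fewer middle-exon peaks. The first-exon share was higher by 6.98 percentage points (95% interval 1.42 to 12.9; two-sided Fisher's exact test with Benjamini-Hochberg adjustment over the 4 classes, adjusted p = 0.0293). The middle-exon share differed by -6.85 percentage points (-11.5 to -1.53, adjusted exact p = 0.0293). For last exons the difference was -0.71 points (-5.77 to 4.92, adjusted exact p = 0.841), and for single exons it was 0.58 points (-2.82 to 4.95, adjusted exact p = 0.841). The plot of exon positions shows these shares side by side.

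**Figure D1:**
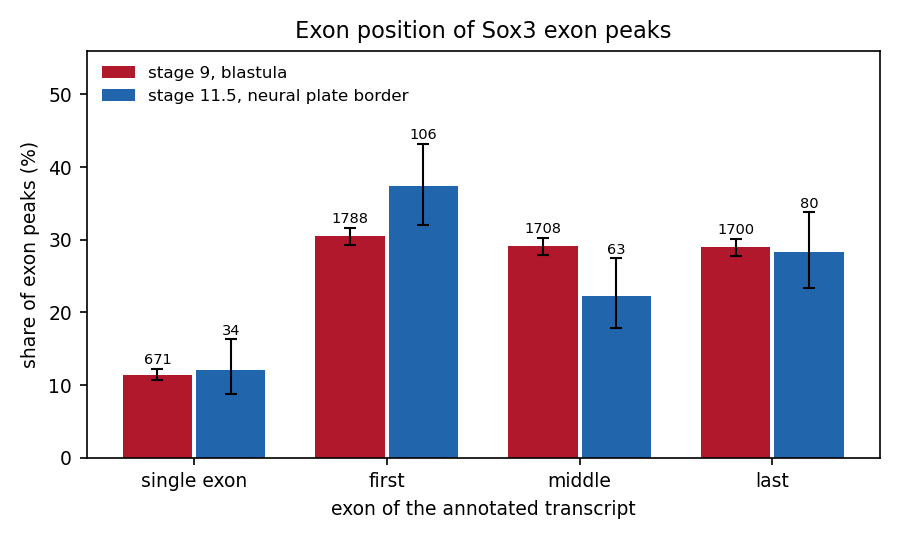
Share of exon peaks (%) in the single, first, middle or last exon of the annotated transcript, for stage 9 (n = 5867) and stage 11.5 (n = 283). Bars are shares, error bars are Wilson 95% intervals and the numbers above them count peaks; the first-exon bar is higher at stage 11.5 (37.5 against 30.5%) and the middle-exon bar lower (22.3 against 29.1%).

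Neither position call passed among stronger peaks, which were fewer. With 1 exon peak per transcript the first-exon difference of 6.72 points no longer passed (adjusted exact p = 0.05005). The middle-exon difference under that rule was -7.48 points and passed (adjusted exact p = 0.0335). Both calls passed on assembled chromosomes (7.45 and -8.36 points, adjusted exact p = 0.0277 and 0.0173). They also passed with single-exon transcripts left out (8.16 and -7.57 points, adjusted exact p = 0.0189 each). With peaks below the median score of their list left out, 119 border and 2599 blastula exon peaks remained. The first-exon difference was then 4.27 points (adjusted exact p = 0.683). The middle-exon difference was -6.78 points (adjusted exact p = 0.489), against -6.85 points over all exon peaks. With fewer peaks, a lost call does not show that a difference is absent. With the stage 9 list cut to the 5300 peaks of largest area, the first-exon difference was 5.43 points (adjusted exact p = 0.471). The middle-exon difference was then -1.94 points (adjusted exact p = 0.691).

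Transcripts with exon peaks had fewer exons at stage 11.5, which was not tested. The median transcript under an exon peak had 4 exons at stage 11.5 (95% interval of the median 3 to 4) and 6 at stage 9 (6 to 7). Among exon peaks of transcripts with more than 1 exon, 67 of 249 (26.9%) lay in transcripts of exactly 2 exons at stage 11.5, and 899 of 5196 (17.3%) at stage 9. Such transcripts have no middle exon, so exon number and position are linked. If every exon of these transcripts were equally likely to hold its peak, 25.8% of the peaks would be in first exons at stage 11.5 and 19.6% at stage 9. The measured first-exon shares were 42.6% and 34.4%, which is 1.65 and 1.75 times that value. For last exons the measured shares of 32.1% and 32.7% were 1.25 and 1.67 times it. This count ignores exon length, and also the windows reserved for promoters and termination sites, which can take up parts of first and last exons. The highest exon number with a peak was 34 at stage 11.5 and 92 at stage 9.

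Distance to the transcription start site (TSS) gave a similar picture in base pairs. The distance in the lists runs from the centre of a peak to the nearest TSS. At stage 11.5, 225 exon peaks (79.5%) were centred within 5 kb of a TSS, against 3876 (66.1%) at stage 9. The difference was 13.4 percentage points (8.22 to 17.9; two-sided Fisher's exact test, p = 1.52e-06). Within 1 kb the counts were 148 (52.3%) and 2335 (39.8%). The median distance was 924 bp at stage 11.5 (95% interval 673 to 1237, quartiles 358.5 and 3358.5) and 1925 bp at stage 9 (1791 to 2074, quartiles 417 and 8186). Exon peaks were thus mostly near a TSS at both stages, and more often so at stage 11.5. The same shares were not computed for other classes, so this is not shown to be particular to exon peaks. Promoter peaks made up 11.9% of the stage 11.5 list and 8.61% of the stage 9 list. With the stage 9 list cut to 5300 peaks the difference was 6.55 points (exact p = 0.0751).

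By the median, stage 11.5 peaks were also nearer to a TSS within each position class except first exons. Middle-exon peaks had a median distance of 4655 bp at stage 11.5 and 8196.5 bp at stage 9. Last-exon peaks stood at 2422.5 and 4579.5 bp. Single-exon peaks were closer, at 532 and 711 bp. First-exon peaks had medians of 411 and 332 bp, so that only this class lay slightly farther at stage 11.5. These medians by class were not tested.

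The nearest TSS was not always that of the transcript whose exon was bound. It belonged to the same transcript for 210 stage 11.5 peaks (74.2%) and 3854 stage 9 peaks (65.7%). A further 27 stage 11.5 peaks (9.54%) and 889 stage 9 peaks (15.2%) lay upstream of their nearest TSS, and in all of these that TSS belonged to another transcript. No exon peak was closer than 101 bp downstream or 1003 bp upstream of a TSS, because closer peaks carry the promoter annotation. More than 50 kb from any TSS lay 2 stage 11.5 and 123 stage 9 exon peaks, the farthest at 157303 and 293841 bp.

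Exon peaks were narrower at stage 11.5. They had a median width of 125 bp at stage 11.5 (95% interval 113 to 138, range 46 to 1257 bp) and of 223 bp at stage 9 (217 to 230, range 31 to 2083 bp). At least 200 bp was reached by 77 stage 11.5 peaks (27.2%) and 3256 stage 9 peaks (55.5%), a difference of -28.3 percentage points (-33.3 to -22.7; two-sided Fisher's exact test, p = 6.23e-21). Other classes showed a gap as well: intron peaks had medians of 142 and 231 bp, and promoter peaks of 132 and 240 bp. By position, the stage 11.5 medians were 144 bp in first, 130 bp in single, 129 bp in last and 110 bp in middle exons. At stage 9 they were 232, 219, 244 and 203.5 bp in the same order. Middle-exon peaks were the narrowest class at both stages.

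**Figure D2:**
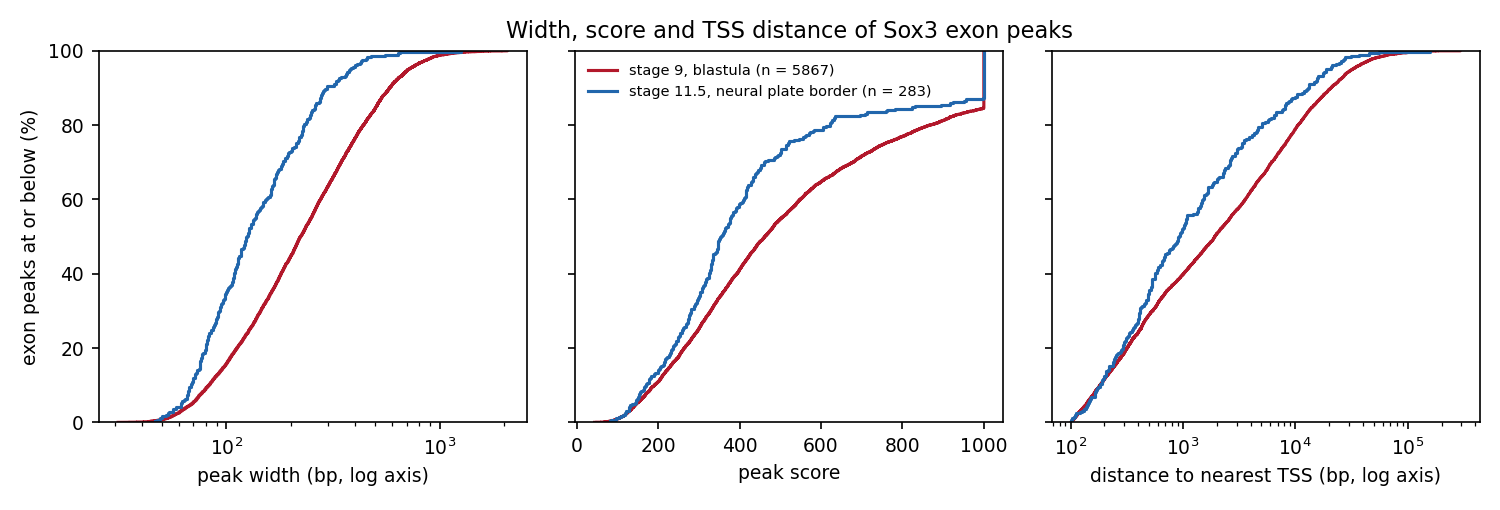
Cumulative share of exon peaks (%) against peak width (bp, log axis), authors' peak score, and distance to the nearest TSS (bp, log axis), for stage 9 (n = 5867) and stage 11.5 (n = 283). The stage 11.5 curve lies to the left for width (medians 125 and 223 bp) and distance (924 and 1925 bp), and the vertical step at a score of 1000 holds the peaks at the maximum.

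The peak score is the peak caller's and stops at 1000, so that peaks at this maximum are tied. It was reached by 36 exon peaks at stage 11.5 (12.7%) and 904 at stage 9 (15.4%), a difference of -2.69 percentage points (-6.21 to 1.79; two-sided Fisher's exact test, p = 0.237). By the median and by a lower limit, taken over all exon peaks including those at the maximum, the lists differed more. The median score was 355 at stage 11.5 (335 to 385) and 462 at stage 9 (451 to 473), and with a limit of 500 the difference in shares was -17.4 points (exact p = 4.57e-09). Median scores were also lower at stage 11.5 in introns (354 and 519), promoters (338.5 and 471), termination sites (425 and 496) and intergenic peaks (403 and 519). On sequences without an annotated transcript the median was higher (1000 and 595). The maximum was reached by 10.1 and 19.0% of intron peaks and by 8.57 and 15.2% of promoter peaks. In the other classes this share was higher at stage 11.5. It was 23.1 and 18.3% at termination sites, 21.4 and 19.3% in intergenic peaks, and 58.6 and 28.1% without an annotated transcript. Last exons held the most peaks at the maximum, 19 of 80 (23.8%) at stage 11.5 and 317 of 1700 (18.6%) at stage 9. First exons held 8 of 106 (7.55%) and 217 of 1788 (12.1%). The cumulative curves show both the lower scores and the smaller widths of the stage 11.5 exon peaks.

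The area of a peak, its score times its width divided by 1000, joins both measures and is a lower bound at the maximum score. Median areas were 40.6 at stage 11.5 and 85.5 at stage 9. Intron peaks had 46.8 and 101.9, and promoter peaks 39.9 and 94.4. An area below 25, close to the minimum for calling, was found for 58 stage 11.5 exon peaks (20.5%) and 501 stage 9 exon peaks (8.54%). The smallest areas were 20.06 and 19.97.

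*X. laevis* is an allotetraploid whose chromosomes form an L and an S subgenome. On assembled chromosomes, 146 stage 11.5 exon peaks lay on L and 103 on S (58.6% on L), and 3092 and 2390 stage 9 exon peaks did so (56.4% on L). The rest lay on unplaced scaffolds, which held 34 stage 11.5 and 385 stage 9 exon peaks. At stage 11.5, 10 of the 34 scaffold peaks (29.4%) were at the maximum score, against 26 of 249 (10.4%) on chromosomes. On chromosomes alone the difference in this share between stages was -4.92 points (exact p = 0.0371).

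The next question was which exon peaks were held at both stages. A peak counted as shared where a peak of the other list overlapped it by 1 bp or more. At stage 11.5, 160 of 283 exon peaks (56.5%, 50.7 to 62.2%) were shared, whereas 65.2% of all stage 11.5 peaks were. At stage 9, 149 of 5867 exon peaks (2.54%, 2.17 to 2.97%) were shared, against 2.72% of all stage 9 peaks. The lists differ in length by far, so the share is large in the short list and small in the long one. The overlap rule moved these counts. With a partner within 1000 bp enough, 201 stage 11.5 and 229 stage 9 exon peaks had one, and with at least 50% of the peak covered, 145 and 31 did. Of the 160 shared stage 11.5 peaks, 5 overlapped by less than 20 bp, the smallest overlap being 1 bp, and the nearest unshared peak abutted a stage 9 peak with a gap of 0 bp.

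Stage 11.5 exon peaks were shared less often than other peaks of their list. The share was 9.2 percentage points lower than that of the pooled other stage 11.5 peaks (65.7%; interval of the difference -15.2 to -3.40; two-sided Fisher's exact test adjusted over 8 sharing tests, adjusted p = 0.00405). Against intron peaks, of which 1152 of 1537 (75%) were shared, the difference was -18.4 points (-24.6 to -12.3, adjusted exact p = 7.61e-09). Promoter peaks were shared in 436 of 630 cases (69.2%; difference -12.7 points, -19.5 to -5.91, adjusted exact p = 0.000615), and termination site peaks in 156 of 229 (68.1%; -11.6 points, -19.7 to -3.13, adjusted exact p = 0.0107). Over the whole list, exon peaks were thus below each of these genic classes. Of the classes not tested singly, intergenic peaks were shared in 64.5% of cases, and the 527 peaks on sequences without an annotated transcript in 38.5%.

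At stage 9 the order was another. Exon peaks and intron peaks were shared in 2.54% and 2.27% of cases, a difference of 0.27 points (-0.12 to 0.73, adjusted exact p = 0.208), and against all other stage 9 peaks the difference was -0.19 points (-0.58 to 0.25, adjusted exact p = 0.411). Promoter peaks were shared more often, at 3.86% (difference -1.32 points, -1.85 to -0.76, adjusted exact p = 2.18e-05), as were termination site peaks at 3.48% (-0.94 points, -1.61 to -0.29, adjusted exact p = 0.00771).

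**Figure D3:**
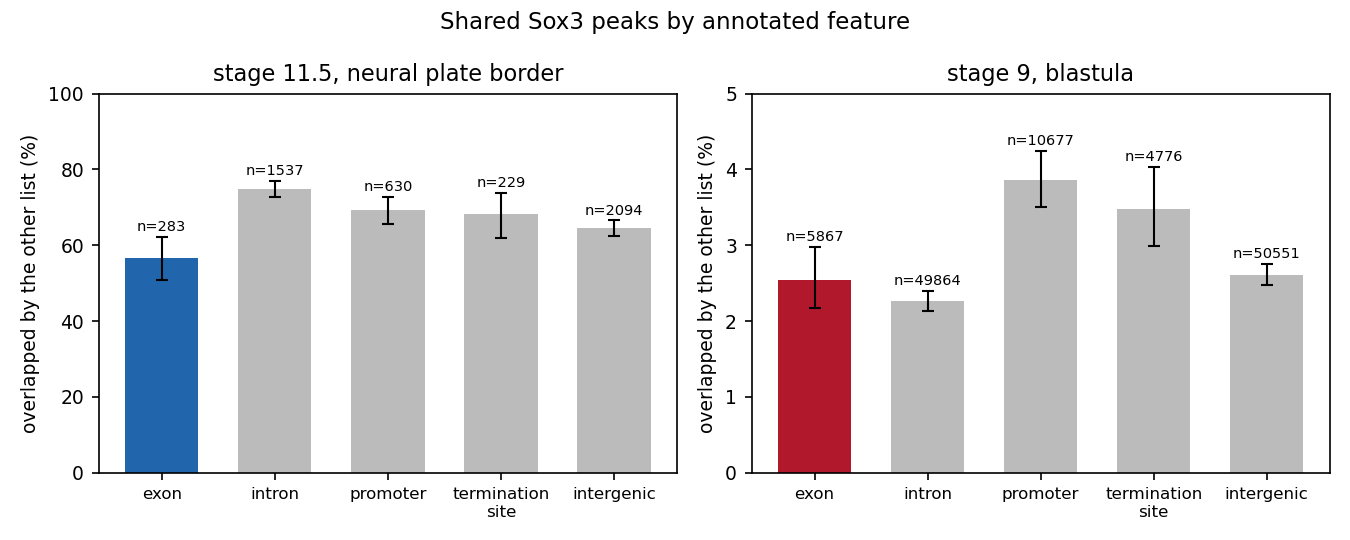
Share of peaks (%) overlapped by 1 bp or more by the other list, by annotated feature, in the stage 11.5 list (left, axis to 100%) and the stage 9 list (right, axis to 5%). Error bars are Wilson 95% intervals and n counts peaks; the exon bar is the lowest of the 5 at stage 11.5 (56.5%) and lies between introns and promoters at stage 9 (2.54%).

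Most of these sharing calls did not pass when both lists were cut to stronger peaks, which were fewer. A partner then also had to pass the cut. These values thus do not show how often strong stage 11.5 exon peaks met any stage 9 peak. At or above the median score of their list, 119 stage 11.5 exon peaks remained, of which 63 (52.9%) were shared. Their difference was -0.16 points against all other peaks (adjusted exact p = 1), -11.9 against introns (adjusted exact p = 0.0943), -4.50 against promoters (adjusted exact p = 0.691) and 0.52 against termination sites (adjusted exact p = 1). A minimum area of 200 in both lists left only 23 stage 11.5 exon peaks. The differences from all other peaks and from termination sites (14 of 23 against 15 of 30) reversed to 6.03 and 10.9 points. That from introns was -12.0 points. No sharing call passed (lowest adjusted exact p of the 8 = 0.751). With so few peaks, a lost call does not show that a difference is absent. With the stage 9 list cut to 5300 peaks, the stage 11.5 difference from introns was -8.99 points (adjusted exact p = 0.0167), and the other 3 were -1.48, -1.34 and -2.38 points (adjusted exact p = 0.763 each). Where a stage 9 peak within 1000 bp was enough, the difference from all other peaks was -2.03 points (adjusted exact p = 0.450). The stage 9 calls against promoters and termination sites were lost at or above the median score (-0.74 and -1.05 points, adjusted exact p = 0.145 and 0.0943) and with the cut list (-3.35 and -2.28 points, adjusted exact p = 0.763 each).

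Wider peaks were shared more often, in exons as elsewhere. When the stage 11.5 peaks were split at the quartiles of width of the whole list, 35.1% of the narrowest exon peaks (32 to 88 bp) were shared, then 51.3%, then 65.7%, and 79.0% of the widest. Intron peaks of the same widths were shared in 48.0, 70.7, 82.9 and 92.9% of cases, and promoter peaks in 52.3, 59.2, 78.2 and 88.3%. Exon peaks were the lowest of these 3 classes at each width, which was not tested by width. At stage 9, 0.48, 0.53, 1.60 and 7.35% of exon peaks were shared from the narrowest to the widest, and 0.35, 0.38, 0.89 and 7.28% of intron peaks. Of the 149 shared stage 9 exon peaks, 112 belonged to the widest class. The plot of sharing by width shows the rise in all classes and the low exon curve at stage 11.5.

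**Figure D4:**
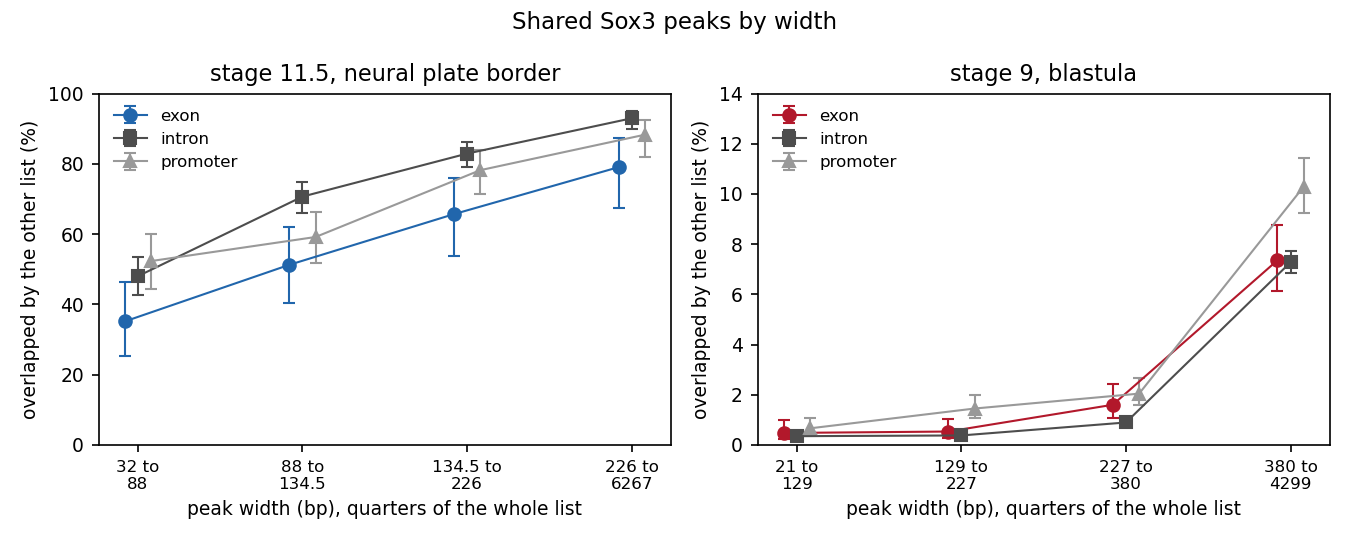
Share of exon, intron and promoter peaks (%) overlapped by the other list, for peaks grouped by the quartiles of width (bp) of their whole list, at stage 11.5 (left, axis to 100%) and stage 9 (right, axis to 14%). Error bars are Wilson 95% intervals; the stage 11.5 exon points run from 35.1 to 79.0% and lie below the intron points, while the stage 9 exon points run from 0.48 to 7.35%.

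Shared and unshared exon peaks were then compared with each other. At least 200 bp was reached by 60 of 160 shared and 17 of 123 unshared stage 11.5 exon peaks (37.5 and 13.8%; difference 23.7 points, 13.5 to 32.9; two-sided Fisher's exact test adjusted over both stages, adjusted p = 7.42e-06). At stage 9 this held for 138 of 149 shared and 3118 of 5718 unshared exon peaks (92.6 and 54.5%; difference 38.1 points, 32.6 to 41.5, adjusted exact p = 9.95e-24). Median widths were 160.5 bp for shared and 96 bp for unshared peaks at stage 11.5, and 601 and 218 bp at stage 9. Shared exon peaks were therefore the wider ones in both lists. A wider peak has more bases at which to meet the 1 bp rule, so these tests do not separate width from the rule. With at least 50% of the peak covered, the differences were 17.7 points at stage 11.5 (adjusted exact p = 0.00168) and 22 points at stage 9 (adjusted exact p = 0.0172). The log2 odds ratio of being wide was 1.87 at stage 11.5 and 3.33 at stage 9, a difference of -1.45 (Woolf's chi-square test, p = 0.0200). By the same chi-square test, this difference was -0.075 (p = 0.918) when the partner had to cover at least 50% of a peak and 0.99 (p = 0.102) when a partner within 1000 bp was enough. Woolf's test takes the tables of the 2 stages as independent. They are not, since 123 of the 160 shared stage 11.5 exon peaks had a stage 9 exon peak as partner. Its p-values here and below are therefore approximate.

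For scores the stages parted. At stage 9, 95 of 149 shared exon peaks (63.8%) were at the maximum score, against 809 of 5718 unshared ones (14.1%), a difference of 49.6 points (41.6 to 56.9; two-sided Fisher's exact test, adjusted p = 8.56e-42). At stage 11.5 the shares were 15 of 160 (9.38%) and 21 of 123 (17.1%), a difference of -7.70 points (-16.1 to 0.18, adjusted exact p = 0.0712). The log2 odds ratios were -0.98 and 3.41, and their difference of -4.39 passed Woolf's chi-square test (p = 1.97e-14). Median scores were 362.5 for shared and 348 for unshared peaks at stage 11.5, and 1000 and 456 at stage 9. The stage 11.5 difference was -9.12 points (adjusted exact p = 0.0312) when the partner had to cover at least 50% of the peak. On assembled chromosomes alone it was -4.09 points (13 of 148 shared against 13 of 101 unshared peaks, adjusted exact p = 0.302). Peaks were called with a minimum area, so a narrow peak enters a list only with a high score. Unshared exon peaks were the narrower ones, and these tests do not separate score from width.

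The order of exon positions by the share of shared peaks differed between the 2 lists. At stage 11.5, last-exon peaks had the highest shared share, 52 of 80 (65%, 54.1 to 74.5%), then first-exon peaks with 59 of 106 (55.7%, 46.2 to 64.8%), single-exon peaks with 18 of 34 (52.9%, 36.7 to 68.5%) and middle-exon peaks with 31 of 63 (49.2%, 37.3 to 61.2%). The intervals of neighbours in this order overlap widely. Last exons held 32.5% of the shared and 22.8% of the unshared peaks, a difference of 9.74 points that did not pass (-0.88 to 19.7; two-sided Fisher's exact test, adjusted p = 0.167). At stage 9 the order was first exons with 65 of 1788 (3.64%, 2.86 to 4.61%), last exons with 45 of 1700 (2.65%, 1.98 to 3.52%), single exons with 12 of 671 (1.79%, 1.03 to 3.10%) and middle exons with 27 of 1708 (1.58%, 1.09 to 2.29%). First and middle exons had intervals that did not overlap. The last-exon contrast of shared with unshared peaks did not pass as a difference between stages (log2 odds ratios, difference 0.601, Woolf's chi-square test, p = 0.201).

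A comparison of first exons was added after these values were seen. First exons held 43.6% of shared and 30.1% of unshared stage 9 exon peaks (13.5 points, 5.69 to 21.6; two-sided Fisher's exact test, adjusted p = 0.00117), and 36.9 and 38.2% at stage 11.5 (-1.34 points, -12.7 to 9.85, adjusted p = 0.901). With at least 50% of the peak covered, the stage 9 difference was 5.03 points (adjusted exact p = 0.624), and with a partner within 1000 bp the stage 11.5 difference reversed to 11.5 points (adjusted exact p = 0.0789). Among stage 9 exon peaks above the median area, 6.31% of first-exon, 4.17% of last-exon, 3.29% of single-exon and 3.09% of middle-exon peaks were shared. Below it the shares for these positions were 1.18, 0.78, 0.30 and 0.22%, from 11, 6, 1 and 2 shared peaks. These counts are too small to rank the positions.

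Each shared stage 11.5 exon peak met exactly 1 stage 9 peak, and that peak was usually larger and in the same exon. Of the 160 partners, 123 (76.9%) were exon peaks themselves, 119 of them in the same exon. A stage 9 peak that met several stage 11.5 exon peaks is counted here for each. The 123 were thus 118 distinct stage 9 exon peaks. The other partners were annotated to introns (19), promoters (13) and termination sites (5). The stage 11.5 peak lay wholly inside its partner in 118 cases (73.8%), and the partner was wider in 147 (91.9%). Partners had a median width of 562 bp, a median of 3.32 times the width of the exon peak they held. Centres lay a median of 87.5 bp apart. The partner was at the maximum score in 102 cases (63.8%). Across the 160 pairs, the widths of both peaks were weakly related (Spearman's rho 0.18), as were the areas (0.30). Each pair covers overlapping bases, and these coefficients are a description only. Seen from stage 9, 141 of 149 shared exon peaks met a single stage 11.5 peak and 8 met more.

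**Figure D5:**
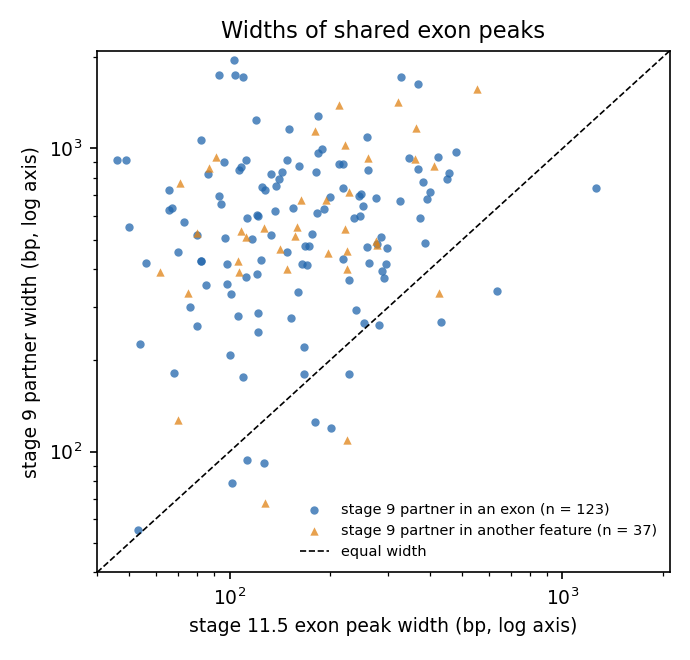
Width of each shared stage 11.5 exon peak (bp, log axis) against the width of its stage 9 partner (bp, log axis), for 123 partners in exons (circles) and 37 in other features (triangles); the dashed line marks equal width. Of the 160 points, 147 lie above the line. A stage 9 peak that met several exon peaks is drawn for each.

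Part of the unshared stage 11.5 exon peaks lay close to a stage 9 peak. Of the 123, 41 (33.3%) had a stage 9 peak within 1 kb and 88 (71.5%) within 10 kb, 27 had their nearest farther away, and 8 lay on sequences without any stage 9 peak. Among the 1719 unshared stage 11.5 peaks outside exons the shares were 21.3% within 1 kb and 52.8% within 10 kb, a difference that was not tested. Peaks outside exons lay on scaffolds more often (929 of 5017, against 34 of 283 exon peaks), so it is not shown to be particular to exons. The median gap of the 123 unshared exon peaks to the nearest stage 9 peak was 2433 bp (quartiles 434.5 and 9370.5 bp). The bound transcript carried a stage 9 exon peak elsewhere for 32 of them (26.0%), and their nearest TSS had a stage 9 peak of some kind for 85 (69.1%, against 61.8% of the other unshared peaks). By place, the share of stage 11.5 exon peaks with a partner was 89 of 146 on L (61.0%, 52.9 to 68.5%), 59 of 103 on S (57.3%, 47.6 to 66.4%) and 12 of 34 on scaffolds (35.3%, 21.5 to 52.1%), with no test of place. Other stage 11.5 peaks were also shared less on scaffolds (44.3%) than on chromosomes (70.6%).

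The largest shared stage 11.5 exon peak by area was chr4S:49401890-49403146, 1257 bp wide with a score of 1000, in the last exon of a transcript of 2 exons and 1082 bp from the TSS. Its stage 9 partner, chr4S:49401697-49402434, was narrower (738 bp, score 1000) and shared 545 bp with it. The peak chr3L:75572220-75572855, also in exon 2 of 2, was 636 bp wide with a score of 1000, and its partner had 340 bp and a score of 578. Both are among the 13 pairs in which the stage 11.5 peak was the wider one. At chr2L:121858134-121858686 (553 bp, score 1000, exon 1 of 2) the opposite held, since the whole peak lay within a stage 9 peak of 1571 bp annotated to a termination site. The fourth, Scaffold6844:7-437 (431 bp, score 1000, exon 1 of 2), met a stage 9 peak of 267 bp and score 218. The fifth, chr9_10L:72715769-72716225 (457 bp, score 917, exon 2 of 2), lay inside a partner of 829 bp and score 1000. All 5 were in transcripts of 2 exons.

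Of the 5 largest unshared stage 11.5 exon peaks, 3 lay on scaffolds. Scaffold1237:1549-2199 was 651 bp wide with a score of 1000, in exon 1 of 3. On chromosomes, chr5L:56202565-56202899 (335 bp, score 1000, exon 1 of 2) lay 527 bp from the TSS, and chr8S:69109542-69109816 (275 bp, score 1000, exon 2 of 2) lay 265 bp from it. The remaining 2 were Scaffold8285:80-417 (338 bp, score 824, single exon) and Scaffold145:86736-86963 (228 bp, score 1000, exon 3 of 4).

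The 5 largest stage 9 exon peaks all had a score of 1000, and 4 of them lay in first exons. The widest, chr2L:122722533-122724615 (2083 bp, exon 1 of 3, 2781 bp from the TSS), was not shared. The next, chr8L:1742925-1744979 (2055 bp, exon 1 of 2), held a stage 11.5 promoter peak of 183 bp and score 914. At chr9_10L:89716193-89718145 (1953 bp, exon 1 of 2), a stage 11.5 peak of 103 bp and score 633 lay in the same exon. The interval chr1L:217939393-217941143 (1751 bp, exon 1 of 2) held 3 stage 11.5 peaks of 281, 104 and 93 bp, and chr6L:119071430-119073155 (1726 bp, single exon) held 2 of 327 and 110 bp. Where these blastula intervals were shared, 1 to 3 short intervals inside them were called at stage 11.5.

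Few transcripts carried several exon peaks. The 283 stage 11.5 peaks fell on 267 transcripts, of which 16 had 2 peaks and none had more. The 5867 stage 9 peaks fell on 5163 transcripts, of which 590 had at least 2. The most was 6, found in 4 transcripts. None of their peaks was shared, but only 2.54% of all stage 9 exon peaks were. At that share so few peaks would often hold no shared one. In rna65264 these 6 lay in exons 27 to 29 of 38, between positions 4671322 and 4683391 of chromosome 4S, with scores from 116 to 1000. In rna75649 all 6 lay in the last of 4 exons, between 1961966 and 1964662 of chromosome 6S. Among the 16 stage 11.5 transcripts, rna75726 on chromosome 4S held the largest exon peak of 1257 bp in its last exon and another of 219 bp in its first, both with a score of 1000. Both were shared with the same stage 9 peak, the narrower one by 16 bp. Exon peaks of both stages were found on 145 transcripts, which are 54.3% of those at stage 11.5 and 2.81% of those at stage 9. This largely repeats the overlaps above, since 119 of the 160 shared stage 11.5 peaks had a partner in the same exon. The same count was not made for peaks of other classes.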

How the data were processed

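Sox3 ChIP-seq was analysed from 12 libraries in 4 groups of 3. Per the paper's methods and the labels, the authors trimmed reads with fastp, aligned them to the *X. laevis* 9.2 genome with bowtie2, handled them with SAMtools and Picard, called peaks with Genrich (Sox3 libraries against controls, mitochondrial sequence left out) and annotated them with HOMER; tool versions are not given in the sources used here. The deposited peak score of the authors is Genrich's, a whole number capped at 1000. Starts, ends and distances are in bp. By their headers, the stage 9 list was made from all replicates, and the stage 11.5 list does not say.

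Widths, areas (score × width / 1000), overlaps (at least 1 bp) and exon positions were computed in Python 3.11.15 (pandas 2.3.3, numpy 2.4.6, scipy 1.17.1, and matplotlib 3.10.9 for plots). Fisher's exact test, two-sided and at a threshold of 0.05, compared shares, with Benjamini-Hochberg adjustment over 4 position classes, 8 sharing tests or the 2 stages. Differences have Newcombe and single shares Wilson 95% intervals, and medians exact order-statistic intervals. Log odds ratios, computed with a small constant added to each cell, were compared by Woolf's test as a z test. The square of its statistic is a chi-square with the same p-value. The functions were tested on simulated data. Regions named were the 5 shared and 5 unshared stage 11.5 exon peaks of largest area with their partners, the 5 largest at stage 9, and transcripts with the most exon peaks, of which, among ties, only some are given. The members and these choices were made with earlier results of these data known. Sequences and gene names were not analysed here. The depth per sample is unknown, which leaves the precision of a single peak unknown. Alternatives changed the set of peaks, the limits and the overlap rule.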

Additional observations from a re-analysis of the deposited data

Results flagged for a closer look

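A total of 3 comparisons of shared with unshared exon peaks differed between the stages when the difference itself was tested. The log2 odds ratio for a peak at the maximum score was lower by 4.39 at stage 11.5 than at stage 9 (difference -4.39, Woolf's chi-square test, p = 1.97e-14). Score and width are not separated in this comparison. The log2 odds ratio for a width of at least 200 bp differed by -1.45 (chi-square p = 0.0200), but by -0.075 (chi-square p = 0.918) with at least 50% of the peak covered and by 0.99 (chi-square p = 0.102) with a partner within 1000 bp. For a place in the first exon, a comparison added after the data were seen, it differed by -0.929 (chi-square p = 0.0307), but by -0.557 (chi-square p = 0.383) and -0.166 (chi-square p = 0.711) under these same rules. Each rests on 2 peak lists without replicates. Woolf's test also takes the 2 lists as independent, although most shared exon peaks of one list overlap a shared exon peak of the other.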

How the results depend on the processing

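Of 151 alternative values, 93 kept the direction and side of the threshold of the reported one or, for shares of exon peaks, stayed within its interval. A further 28 lost significance, 7 gained it, 13 reversed and 10 shares moved beyond their interval. Of the alternatives, 9 were chosen after seeing the data. Differences are percentage points, and the causes of these changes were not tested.

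With both lists cut to peaks at or above their median score, first-exon, middle-exon and last-exon differences between stages were 4.27, -6.78 and 2.13. Stage 11.5 sharing differed by -0.16 from all other peaks, -11.9 from introns, -4.50 from promoters and 0.522 from termination sites. Stage 9 sharing was 2.08% and differed by -0.738 from promoters and -1.05 from termination sites; none of these differences passed.

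With a minimum area of 200, only 23 stage 11.5 exon peaks remained. The first-, middle- and last-exon differences were 2.54, -13.2 and 4.77, that of the maximum score 6.91 and that of width 0, since peaks this large are all at least 200 bp wide. Stage 11.5 sharing then differed by 6.03 from all others, -12.0 from introns, -6.57 from promoters and 10.9 from termination sites. Stage 9 sharing was 0.653% and differed by -0.201 from promoters and -0.593 from termination sites; none of these passed.

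With the stage 9 list cut to as many peaks, the position differences were 5.43 (first) and -1.94 (middle), the share within 5 kb differed by 6.55 and that at the maximum score by -70.2, a value set by the cut itself, which selects on score times width (the width difference, -72.8, is set likewise). Sharing was 21.2% at stage 11.5 and 19.6% at stage 9. It differed by -1.48, -1.34 and -2.38 from all others, promoters and termination sites at stage 11.5, and by -0.281, -3.35 and -2.28 from introns, promoters and termination sites at stage 9, with no call among these.

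With 1 exon peak per transcript, the first-exon difference was 6.72 and its call was lost (adjusted exact p = 0.05005), and the last-exon difference 0.012. On assembled chromosomes the share at the maximum score differed by -4.92, and with a score limit of 500 by -17.4.

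With at least 50% of the peak covered, stage 9 sharing was 0.528% and differed by -0.256 from all others (adjusted exact p = 0.0303). Shared against unshared peaks differed by -9.12 in maximum score at stage 11.5 and by 5.03 in first exons at stage 9, and the differences of log2 odds ratios between stages were -0.139 for last exons, -0.557 for first exons and -0.075 for width. With the midpoint inside a partner, stage 9 sharing was 1.38%. With an exon partner required, sharing was 43.5 and 2.01%.

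With a partner within 1000 bp, sharing was 71.0 and 3.90%. It differed by -2.03 from all others at stage 11.5, and by 0.26 from all others and 0.829 from introns at stage 9. Of these, only the difference from introns passed (adjusted exact p = 0.00182). Shared against unshared peaks differed by -11.3 in maximum score (adjusted exact p = 0.0169) and 11.5 in first exons at stage 11.5. At stage 9 they differed by -1.52 in last exons. The log2 odds ratio differences were -0.166 for first exons and 0.99 for width.

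No paired analysis was possible because the 2 lists, 1 a stage, carry no replicate numbers in their columns. Leaving out a replicate was not possible either. The lists hold no reads, and neither depth, duplicates nor signal below the calling minimum was examined here.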
